A study of Homo sapiens with 12 samples.

Results

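The genes described here encode the part of the respiratory chain that is made in mitochondria and the nuclear-encoded subunits of its first complex. They were chosen by symbol: protein-coding genes whose names begin MT-ND, MT-CO, MT-ATP or MT-CYB, and protein-coding genes whose names begin NDUF followed by A, B, C, S or V and a digit. Of the 60607 rows of the deposited table, 112 carried such a symbol, 60 of those were pseudogenes or non-coding RNAs, and 52 remained. Mitochondrial DNA encodes 13 of the 52 and nuclear DNA encodes 39. After a filter on low counts, 51 of the 52 were among the 17320 genes tested. The exception was NDUFC2-KCTD14, a readthrough transcript that joins NDUFC2 to its neighbour, with a highest group mean of 0.467 CPM, where CPM is a gene's counts over the TMM-scaled size of its library, per 1e6 counts.

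Complex I, the NADH dehydrogenase of the inner mitochondrial membrane, takes electrons from NADH, passes them to ubiquinone and pumps protons. Its electron input (N) and quinone (Q) modules lie in an arm that reaches into the matrix and are built around nuclear-encoded core subunits. The proton-pumping core lies in the membrane arm and is encoded in mitochondrial DNA by the ND genes, while many nuclear-encoded accessory subunits surround both arms. The mitochondrial genes are transcribed from both strands of a small circular genome as long precursors that are cut into separate messenger and ribosomal RNAs. Heart muscle depends on this chain for most of its ATP, and doxorubicin, an anthracycline that intercalates into DNA and poisons topoisomerase II, is known for damage to the heart and for accumulating in mitochondria.

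The 12 RNA-seq libraries came from the AC16 line, labelled wild type, which derives from human adult ventricular cells fused to transformed fibroblasts without mitochondrial DNA. The 3 control libraries came from cells in DMEM without the drug, and groups of 3 libraries each came from cells kept in 0.1 µM doxorubicin for 2, 4 or 6 days before harvest. In the titles these exposures read 48, 96 and 112 hours and every library is also marked day 6, so the longest exposure is 6 days by one label and 112 hours by another. The groups are called control, day 2, day 4 and day 6 below, by length of exposure. No label says that replicates were separate cultures, so the p-values measure the spread between libraries, which may be technical.

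Library totals were 14835743 to 21226441 counts, and no pair of libraries was close enough to be 1 library counted again. The labelled cell type was set against its markers: 10 of 13 cardiomyocyte markers, TNNT2, TNNI3, MYH6 and MYH7 among them, did not pass the low-count filter, MYL2 was at 0 in every library, and all 13 summed to 8.93 to 14.8 CPM in control and 17.7 to 20.5 CPM at day 6, most of it from TTN. All 12 fibroblast markers passed and summed to 7953 to 8659 CPM in control, 12250 to 12610 CPM at day 2, 10386 to 10927 CPM at day 4 and 8899 to 9323 CPM at day 6. Endothelial markers (5 of 8 passed) summed to 22.7 to 29.1 CPM over all libraries, and blood cell markers (3 of 8 passed, HBA1 at 0) to 4.82 to 7.55 CPM in control and 10.2 to 13.3 CPM at days 4 and 6. The blood cell markers did not move together. From control to day 6, mean CD68 went from 2.51 to 7.72 CPM and mean CD14 from 1.43 to 0.275 CPM. A set of 5 nuclear-retained RNAs, read as a sign of RNA quality, summed to 5523 to 6485 CPM in control, 5960 to 8475 CPM at day 2, 7501 to 9067 CPM at day 4 and 6687 to 7475 CPM at day 6. The 5 did not move together: 2, 3 and 2 had log2 fold changes above 0 against control at days 2, 4 and 6. Their part in the results below was not tested. In these bulk samples, fewer cells of a type and less RNA per cell cannot be told apart.

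The 13 mitochondrial genes lie close together on chromosome M in the GENCODE 29 annotation of GRCh38, with 12 on the plus strand and only MT-ND6 on the minus strand, at chrM:14149-14673. The messages of the 12 are rich in C (29.5% to 36.0%) and poor in G (6.28% to 16.2%), while MT-ND6 is 35.6% G and 7.05% C. Of the 13, 6 end in an incomplete stop codon that is completed by the poly(A) tail. Neighbours also share bases, which bears on how far their counts are separate: MT-ATP8 and MT-ATP6 overlap by 46 bases, MT-ND4L and MT-ND4 by 7, and MT-ATP6 and MT-CO3 by 1. The plus strand of both longer overlaps is shown 5′ to 3′, with the shared bases in capitals and their flanks in lower case, from chrM:8497-8602 and chrM:10730-10796.
MT-ATP8/MT-ATP6: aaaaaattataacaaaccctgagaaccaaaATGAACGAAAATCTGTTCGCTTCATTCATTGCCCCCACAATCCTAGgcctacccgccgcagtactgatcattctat
MT-ND4L/MT-ND4: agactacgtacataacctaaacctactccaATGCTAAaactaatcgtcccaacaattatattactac
In each pair both proteins are read from 1 RNA, in different frames. The sources used here do not say how reads in shared bases were assigned. For that reason MT-ATP8 and MT-ND4L, the shortest of these genes at 207 and 297 bases, are uncertain wherever they are named below. No alternative run below changes how their reads were assigned. Nuclear copies of mitochondrial genes raise the same question. The 404 annotated pseudogene copies held 6786 to 13107 counts per library, or 0.813% to 1.18% of the counts of the 13 genes, and 1 of them, MTATP6P1, held counts equal to 8.68% to 14.9% of those of MT-ATP6.

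Per base, mitochondrial messages were far more abundant than nuclear ones. In control, the level per kilobase of the principal transcript had a median of 3146 CPM per kb over the 13 mitochondrial genes, from 1323 for MT-ATP8 to 7553 for MT-CO1, the catalytic subunit of complex IV. Over the 39 nuclear genes the median level was 21.0 CPM per kb, and the highest was 141 CPM per kb for NDUFS5, an accessory subunit of the membrane arm. The ranges of both sets did not overlap. In complex I itself, the summed counts of the 7 ND genes were 15.7, 19.0 and 17.4 times those of 37 nuclear complex I genes in the control libraries.

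The share of all counts that fell on the 13 mitochondrial messages varied between libraries of 1 group as well as between groups. It was 4.37, 6.12 and 5.10% in the control libraries, 6.00, 5.94 and 4.22% at day 2, 6.34, 6.44 and 6.43% at day 4 and 4.24, 4.88 and 5.14% at day 6. Exact (Clopper-Pearson) 95% binomial intervals were far narrower than these gaps, at 4.36% to 4.38% for control replicate 1 and 6.11% to 6.13% for control replicate 2, and they cover counting error only. The day 4 libraries lay within 1.02-fold of each other and above the other 9 libraries, while the control libraries spanned 1.40-fold and the day 2 libraries 1.42-fold, and both groups overlapped with each other and with day 6. Group means were 5.19% ± 0.880 (SD, n = 3) in control, 5.39% ± 1.01 at day 2, 6.40% ± 0.0549 at day 4 and 4.75% ± 0.461 at day 6. The pooled SD within groups was 0.709 percentage points and the SD of the 4 group means 0.699. These are not on 1 scale, since a mean of 3 libraries varies less than a single library. As a summed score over the chosen genes, the share was not tested.

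**Figure D1:**
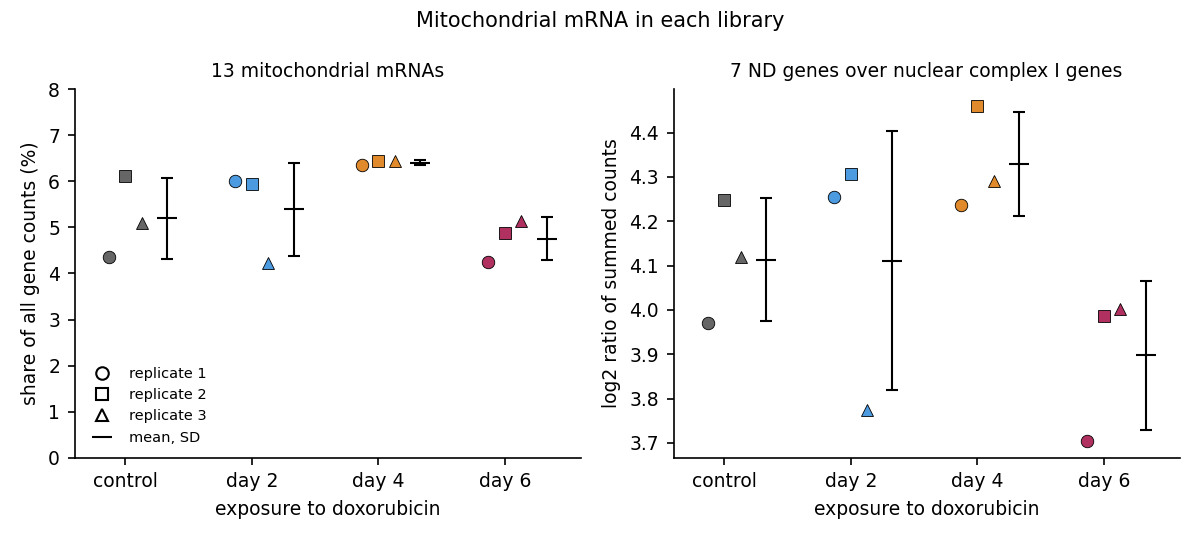
The left panel plots, for each library, the share of all gene counts (%) that fell on the 13 mitochondrial messages, and the right panel the log2 ratio of summed counts of the 7 ND genes to 37 nuclear complex I genes, by group. Symbols mark replicates, and the bar and whisker give the mean and SD of 3 libraries. The 3 day 4 libraries sit together near 6.4%, while control and day 2 libraries range from 4.22% to 6.12%.

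Mitochondrial messages moved up and down together within a group. Of the variance of their log2 CPM within groups, 85.8% was common to the 13 genes, against 18.2% for the 38 tested nuclear genes. The nuclear set includes scarce genes, where counting error adds spread that is not shared. NDUFA4L2 had an SD of 0.683 at a mean of 0.694 CPM, while the lowest mitochondrial mean was 279 CPM. How much of the contrast comes from abundance was not tested. In control replicate 2 and in day 2 replicates 1 and 2, 13 of 13 messages lay above their group mean, and in control replicate 1 and day 2 replicate 3, 0 of 13 did. The median SD within groups was 0.237 on the log2 scale for the mitochondrial genes, 0.140 for the nuclear genes and 0.175 for all tested genes. Among the 590 genes at least as abundant as MT-ATP8, where counting error is small, it was 0.0995. The log2 ratio of ND to nuclear complex I counts needs no scaling between libraries and had means of 4.11 ± 0.14 (SD, n = 3) in control, 4.11 ± 0.29 at day 2, 4.33 ± 0.12 at day 4 and 3.90 ± 0.17 at day 6. It was 3.97, 4.25 and 4.12 in the control libraries, 4.24, 4.46 and 4.29 at day 4 and 3.70, 3.99 and 4.00 at day 6. The day 4 libraries lay above all 3 day 6 libraries, and each of these groups overlapped control.

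Each gene was tested with edgeR's quasi-likelihood test on TMM-scaled counts, with Benjamini-Hochberg adjustment over all 17320 genes, and is called higher or lower where the adjusted p is under 0.05. Log2 fold changes carry their SE. A test for any difference among the 4 groups called 11 of 13 mitochondrial and 21 of 38 nuclear genes, where it called 63.4% of all tested genes. MT-ND3 and MT-ND6 were the mitochondrial genes not called, with adjusted p of 0.0813 and 0.0679 in that test.

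At day 2, MT-CO1 was the 1 mitochondrial message called against control. It measured 10053, 13274 and 11613 CPM in control and 17312, 17275 and 13123 CPM at day 2. The lowest day 2 library fell just under the highest control library, and the other 2 were above all controls. The log2 fold change was 0.45 ± 0.10 (adjusted p = 0.000927), and it was 0.67 without control replicate 2 and day 2 replicate 3, the libraries whose mitochondrial share lay farthest from their group's median. They were chosen after the data were seen, and held the highest control share and the lowest day 2 share. Leaving them out therefore raises mitochondrial messages at day 2 against control by the choice itself. MT-CO1 was the 1 gene of 13 called higher, where 23.8% of all tested genes were, and 0 of 13 were called lower, where 23.4% were. At an unadjusted p under 0.05, 0 were lower, and DESeq2 also called 0. Without day 2 replicate 3, 7 of 13 were called higher, without control replicate 2 alone 2 were, and without both libraries 9. For 0 of 13 did the groups not overlap, where 52.2% of all genes had no overlap. The median log2 fold change was 0.15 over the 13 and -0.01 over all tested genes.

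At day 4 all 13 mitochondrial messages had higher means than control and 5 were called higher, where 18.8% of all tested genes were. These were MT-ND1, MT-ND4L and MT-ND5 of complex I and MT-CO1 and MT-CO3 of complex IV. MT-CO1 measured 16699, 16395 and 17156 CPM, all above control, with a log2 fold change of 0.52 ± 0.10 (adjusted p = 0.000291). MT-ND5, one of the large proton-pumping subunits, measured 3646, 4795 and 4278 CPM in control and 4930.4, 6202 and 5465 CPM at day 4, with no overlap, or 0.38 ± 0.12 on the log2 scale (adjusted p = 0.02). MT-ND4L, a small subunit beside the quinone site, measured 400.5, 456 and 465 CPM in control and 619.7, 578 and 508 CPM at day 4, again with no overlap. Its log2 fold change was 0.37 ± 0.10 (adjusted p = 0.00746). MT-ND1, which lines the quinone channel, was at 0.40 ± 0.15 on the log2 scale (adjusted p = 0.0442), and MT-CO3, a structural core subunit of complex IV, at 0.30 ± 0.11 (adjusted p = 0.0425). MT-ND3 and MT-ND4 had log2 fold changes in the same range, 0.52 ± 0.19 and 0.39 ± 0.16, at adjusted p of 0.0537 and 0.0707. In 8 of 13 the groups did not overlap, where 44.6% of all genes had no overlap.

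The MT-CO1 call at day 4 was the only 1 of these 5 kept under all 21 alternatives run. MT-ND1 and MT-CO3 lost it without control replicate 1 or 3 or any 1 day 4 library, and with libraries scaled by totals alone (adjusted p 0.0546 to 0.213). MT-ND1 also lost it without day 6 replicate 2 or 3, which enter through the shared spread, and MT-CO3 without day 6 replicate 2. MT-ND5 lost it without control replicate 1 (0.0974), control replicate 3 (0.0533) or day 4 replicate 2 (0.0906), and MT-ND4L without day 4 replicate 1 (0.0511). The count of 5 became 2 without control replicate 1 or 3 or day 4 replicate 1 or 2, 3 without day 4 replicate 3 or day 6 replicate 2, 8 without control replicate 2, 9 without day 2 replicate 3 and 12 without both of those. Control replicate 2 held the highest mitochondrial share of its group, so leaving it out raises these changes by the choice itself. None of the 13 was lower in mean, and DESeq2 called 6 higher and 0 lower. Of all genes, 17.7% were called lower.

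At day 6 no mitochondrial message was called higher than control, and 3 were called lower. MT-CO2, the subunit that accepts electrons from cytochrome c, measured 3519.8, 5297 and 4308 CPM in control and 2031, 2875 and 3054 CPM at day 6, with all day 6 libraries below all controls. Its log2 fold change was -0.72 ± 0.18 (adjusted p = 0.00484). MT-CYB, cytochrome b of complex III, measured 3984, 5721 and 4591 CPM in control and 2802, 3532 and 3798 CPM at day 6, also without overlap, with a log2 fold change of -0.50 ± 0.15 (adjusted p = 0.0165). MT-ATP6, the proton channel subunit of ATP synthase, measured 3490.4, 5524 and 4272 CPM in control and 2526, 3339 and 3533 CPM at day 6, where the highest day 6 library passed the lowest control. Its log2 fold change was -0.50 ± 0.18 (adjusted p = 0.0372). MT-ATP8, which overlaps it, was at -0.59 ± 0.22 with an adjusted p of 0.0538, and MT-CO1 at 0.18 ± 0.10 with an adjusted p of 0.174. None of the 7 ND genes was called, with log2 fold changes from -0.34 (MT-ND2) to 0.00 (MT-ND3).

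The 3 of 13 called lower at day 6 compare with 21.7% of all tested genes, and the 0 of 13 called higher with 22%. At an unadjusted p under 0.05, 5 were lower and 0 higher, and DESeq2 called 4 lower and 0 higher. In 3 of 13 the groups did not overlap, where 50.9% of all genes had no overlap. The call on MT-ATP6 was lost without control replicate 2 (0.205) or 3 (0.0684), day 4 replicate 2 (0.0662) or 3 (0.0626), or day 6 replicate 1 (0.109) or 2 (0.0602). The call on MT-CYB was lost without control replicate 2 (0.118) or day 6 replicate 1 (0.056). With no filter on low counts, none of the 3 calls held, at adjusted p of 0.0537 for MT-CO2, 0.086 for MT-CYB and 0.197 for MT-ATP6. The count of 3 became 1 without control replicate 2 or day 6 replicate 1, and 5 without control replicate 1 or day 2 replicate 3. Without control replicate 2, 1 of the 13 was called higher.

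**Figure D2:**
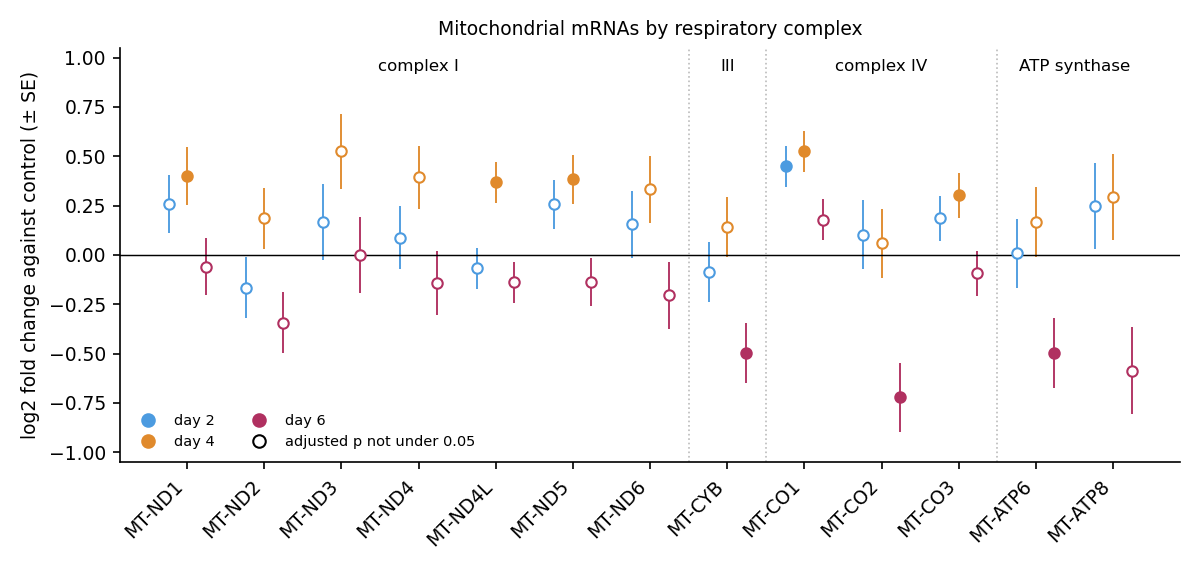
Log2 fold change against control with its SE for each of the 13 mitochondrial messages, grouped by respiratory complex, at day 2, day 4 and day 6. Filled points passed an adjusted p of 0.05 in edgeR's quasi-likelihood test; day 4 points lie above 0 for all 13, and the filled day 6 points are MT-CYB, MT-CO2 and MT-ATP6.

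Every mitochondrial message was lower at day 6 than at day 4, and 8 of them passed the test. In 13 of 13 genes all 3 day 6 libraries lay below all 3 day 4 libraries, where 27.6% of all genes had no overlap. Log2 fold changes ran from -0.35 for MT-CO1 to -0.88 for MT-ATP8, with a median of -0.53, while the median over all tested genes was 0.00. Nuclear-encoded members had a smaller median fall in this step, -0.09, with 5 of 38 above 0. Nuclear genes of ATP synthase, complex III and complex IV, described below, had medians of -0.19, -0.15 and -0.18. In these lists 2 of 18, 1 of 9 and 0 of 10 were above 0. Assembly factors of complex I had a median of 0.05, with 10 of 18 above 0. The 8 of 13 called lower compare with 3.73% of all tested genes. Within groups 85.8% of the variance was common to the 13, so they are not 13 separate observations beside these shares. They were MT-ATP6, MT-ATP8, MT-CO1, MT-CO2, MT-CO3, MT-CYB, MT-ND4L and MT-ND5. MT-CO2 went from 4626, 4414 and 4637 to 2031, 2875 and 3054 CPM, or -0.78 ± 0.18 on the log2 scale (adjusted p = 0.0192). MT-ATP8 went from 307, 339 and 360.2 to 183, 181 and 183 CPM, or -0.88 ± 0.22 (adjusted p = 0.0431). MT-ND4L went from 619.7, 578 and 508 to 388, 418 and 396 CPM, or -0.50 ± 0.10 (adjusted p = 0.00415), the 1 call of these 8 kept under all 21 alternatives. The alternatives do not reassign reads in the bases it shares with MT-ND4, so this call stays uncertain. MT-ND4 and MT-ND5, which resemble ion antiporters, were at -0.54 ± 0.16 (adjusted p = 0.0627) and -0.52 ± 0.12 (adjusted p = 0.0148).

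The number called between day 4 and day 6 moved with single libraries, while none of the 8 log2 fold changes changed sign. It was 2, 1 and 1 without day 4 replicates 1, 2 and 3, and 2, 3 and 5 without day 6 replicates 1, 2 and 3. It was 4 without control replicate 3, 11 without control replicate 1 and 13 without day 2 replicate 3, libraries of neither group in this comparison. With the day 4 and day 6 libraries fitted alone 13 were called, with DESeq2 10, and with library totals in place of TMM 4. At an unadjusted p under 0.05, 13 were lower. Scaling by totals alone shifted the median of all genes to 0.07 in this step and its split from 528 higher and 646 lower to 1006 and 350. None of the 13 was called higher by edgeR, at an unadjusted p under 0.05 or by DESeq2, where 3.05% of all genes were called higher. Day 6 and day 4 are each also compared with the same control libraries above.

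From day 2 to day 4 the 1 mitochondrial gene called was MT-ND4L, which went from 479, 446 and 335 to 619.7, 578 and 508 CPM without overlap, or 0.44 ± 0.10 on the log2 scale (adjusted p = 0.00205), and was kept under all 21 alternatives. This call stays uncertain too, because of the bases shared with MT-ND4. Among all tested genes, 16.3% were called higher and 18.5% lower in this step, and the split of 2828 higher and 3203 lower became 3842 and 2443 with library totals alone, under which 2 of the 13 were called higher, as they were without day 2 replicate 1. None of the 13 was called lower, also not at an unadjusted p under 0.05 or by DESeq2. In 4 of 13 the groups did not overlap, where 45.9% of all genes had no overlap.

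The make-up of the mitochondrial message pool also differed between groups. Within the 13, shares need no scaling between libraries, and they are described without a test because a gain in 1 message lowers the others. They may still vary with how much mitochondrial RNA a library held. In control, day 2 and day 6, though not at day 4, the MT-CO1 share was highest in the library with the lowest mitochondrial share. This link was not tested. MT-CO1 made up 23.6, 22.0 and 23.2% of the pool in control, 27.0, 27.3 and 29.1% at day 2, 26.4, 25.0 and 26.7% at day 4 and 30.1, 28.8 and 28.2% at day 6. All 9 exposed libraries lay above all 3 controls. MT-CO2 made up 8.26, 8.78 and 8.62% in control, 8.24, 8.02 and 8.28% at day 2, 7.30, 6.72 and 7.22% at day 4 and 5.06, 6.11 and 6.21% at day 6, and each of the last 2 groups lay below all libraries of the groups before it. MT-CYB made up 9.35, 9.48 and 9.19% in control and 7.79% ± 0.160 (SD, n = 3), 8.16% ± 0.101 and 7.40% ± 0.383 at days 2, 4 and 6, all below control, as were MT-ATP6 and MT-ND2.

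MT-CO1 and MT-CO2 are neighbours on 1 precursor, at chrM:5904-7445 and chrM:7586-8269, and encode subunits of the same complex. Their ratio of counts was 2.86, 2.51 and 2.70 in control, 3.27, 3.40 and 3.52 at day 2, 3.61, 3.71 and 3.70 at day 4 and 5.95, 4.71 and 4.55 at day 6. No pair of groups overlapped in this ratio. With libraries scaled to the summed counts of the 13 genes, an alternative added after the data were seen, MT-CO2 at day 6 against control was the 1 call made on the 13 genes in any of the 5 comparisons, at -0.56 ± 0.19 (adjusted p = 0.0185, edgeR's quasi-likelihood test). That scaling was applied to every gene in the fit, which carries the spread of the mitochondrial share into the nuclear genes. MT-CO1, whose share lay above all controls at day 6, was at 0.34 ± 0.19 there (adjusted p = 0.175, same test). The lack of other calls therefore says little about make-up. MTCO1P12, a nuclear copy of MT-CO1, held 625 to 1142 counts per library, 0.279% to 0.415% of those of MT-CO1.

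**Figure D3:**
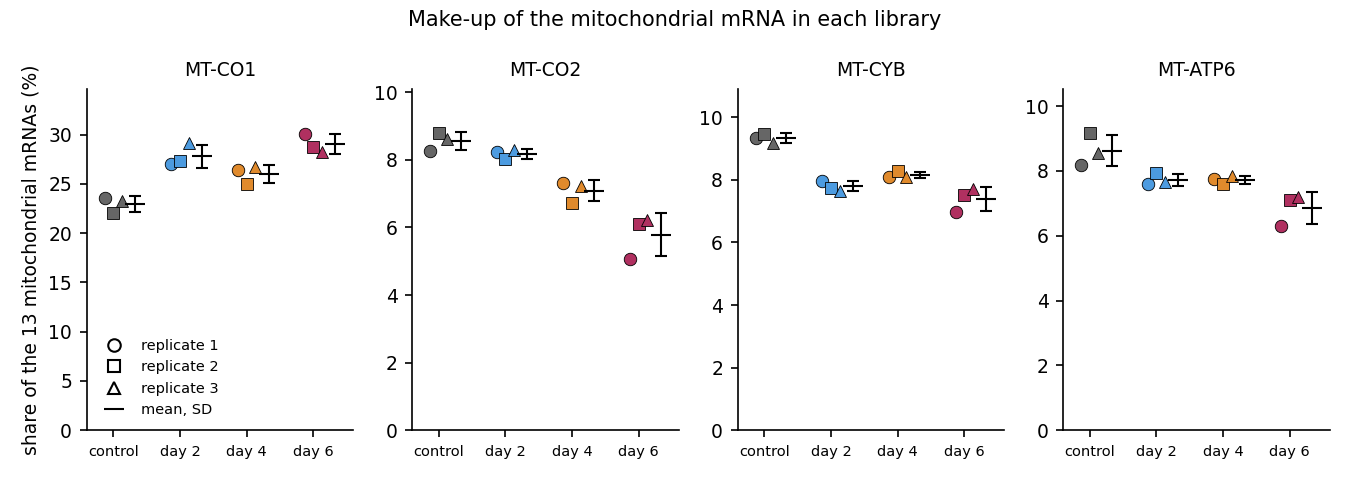
Share of the counts of the 13 mitochondrial messages (%) taken by MT-CO1, MT-CO2, MT-CYB and MT-ATP6 in each library, by group; the bar and whisker give the mean and SD of 3 libraries. MT-CO1 lies above all controls in every exposed library, and MT-CO2 is lowest at day 6.

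Among the nuclear-encoded genes, those called higher against control were accessory subunits and NDUFA4, most of them already at day 2, and none was called between day 4 and day 6. At day 2, 13 of 38 were called higher and 3 lower, where 23.8% and 23.4% of all tested genes were. At day 4, 13 were called higher and 1 lower (18.8% and 17.7% of all genes), and at day 6, 5 higher and 3 lower (22% and 21.7%). Median log2 fold changes were 0.18, 0.18 and 0.05, against -0.01, 0.00 and -0.01 over all tested genes. In 18, 14 and 12 of the 38 the groups did not overlap at days 2, 4 and 6, where 52.2%, 44.6% and 50.9% of all genes had no overlap. Between day 4 and day 6 none was called (3.05% and 3.73% of all genes), 6 were lower and 0 higher at an unadjusted p under 0.05, and DESeq2 called 1 lower. Without day 6 replicate 3, 2 were called lower, and without control replicate 1 or 2 or day 2 replicate 2 or 3, 1 was. Between day 2 and day 4, 5 were called higher and 1 lower (16.3% and 18.5%).

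The counts at day 2 depended on the scaling. TMM put the median of all tested genes at -0.01 and library totals alone put it at -0.14, so that the split over all genes went from 4122 higher and 4058 lower to 3203 and 5386, and that of the nuclear members from 13 and 3 to 8 and 6. Without day 2 replicate 1 the 13 became 8. At day 4 the 13 became 8 without control replicate 1 and the 1 lower became 2 without day 4 replicate 3, and at day 6 the 5 became 9 without control replicate 2 and the 3 lower became 1 without control replicate 2 or 3 or day 6 replicate 1 or 2, and 5 without day 6 replicate 3. Of the 62 calls on the 52 genes over all 5 comparisons, 27 were kept under all 21 alternatives, and no log2 fold change called changed sign under any of them.

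NDUFV3 had the largest rise among the nuclear-encoded genes. This accessory subunit of the electron input module measured 25.6, 30.1 and 25.7 CPM in control, 45.8, 49.2 and 47.1 CPM at day 2, 47.9, 44.6 and 45.9 CPM at day 4 and 47.4, 54.0 and 54.1 CPM at day 6. Every exposed library lay above every control. Log2 fold changes were 0.80 ± 0.09, 0.77 ± 0.09 and 0.93 ± 0.09 (adjusted p = 1.01e-07, 3.52e-07 and 8.71e-09), or 1.75-, 1.70- and 1.91-fold, and all 3 calls were kept under every alternative run. Its exons overlap no other annotated gene.

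Among the other 8 accessory subunits of the matrix arm, NDUFA5, NDUFA12 and NDUFS6 were called higher at day 2. Of all 9 accessory subunits of this arm, 4, 3 and 2 were called higher at days 2, 4 and 6, where 23.8%, 18.8% and 22% of all tested genes were. Of the same 9, 0 were lower against control at any time by edgeR, at an unadjusted p under 0.05 or by DESeq2. Of all tested genes, edgeR called 23.4%, 17.7% and 21.7% lower. NDUFA5, which sits in the quinone module, measured 42.9, 44.2 and 48.1 CPM in control and 58.2, 52.3 and 49.8, then 62.8, 55.6 and 58.8 and 63.9, 61.6 and 54.0 CPM at days 2, 4 and 6. All exposed libraries lay above all controls, with log2 fold changes of 0.25 ± 0.09, 0.39 ± 0.09 and 0.41 ± 0.09 (adjusted p = 0.028, 0.0014 and 0.000731). NDUFA12, which joins the matrix arm late in assembly, was called higher at day 2 (0.31 ± 0.10, adjusted p = 0.0104) and was lower again by day 4 in the direct comparison (-0.28 ± 0.10, adjusted p = 0.0244). NDUFS6, a zinc-binding subunit, was called higher at days 2 and 4 (0.31 ± 0.12 and 0.38 ± 0.12, adjusted p = 0.0321 and 0.0118). NDUFS4 and NDUFA9, both needed for a stable matrix arm, were not called at any time, nor were NDUFA2, NDUFA6 and NDUFA7.

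Several of these matrix-arm calls rested on single libraries. NDUFA5 at day 2 was not called without control replicate 1 (0.108), control replicate 2 (0.0522) or day 2 replicate 1 (0.132), and with library totals alone its log2 fold change was 0.13. NDUFA12 at day 2 was not called without control replicate 3 (0.0806) or day 2 replicate 1 (0.0602) or with library totals alone (0.113), and its fall from day 2 to day 4 was lost without day 2 replicate 1 (0.124) or day 4 replicate 2 (0.0928) or 3 (0.0696). NDUFS6 was not called at day 2 without control replicate 1 (0.237) or 3 (0.0779) or any 1 day 2 library (0.0521 to 0.0658), nor at day 4 without control replicate 1 (0.115) or day 4 replicate 3 (0.0527).

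Of the 20 accessory subunits of the membrane arm, 8 were called higher at day 2, 9 at day 4 and 2 at day 6, where 23.8%, 18.8% and 22% of all tested genes were. By edgeR 0 were called lower at any of the 3 times, as at an unadjusted p under 0.05 and by DESeq2. Of all tested genes, edgeR called 23.4%, 17.7% and 21.7% lower. NDUFB8, a transmembrane subunit often read as a marker of assembled complex I, measured 18.5, 22.8 and 20.6 CPM in control, 32.2, 30.3 and 30.1 CPM at day 2, 29.9, 29.4 and 27.3 CPM at day 4 and 27.1, 26.9 and 26.9 CPM at day 6. No exposed library overlapped the controls, and the 3 calls, at 0.58 ± 0.10, 0.49 ± 0.10 and 0.39 ± 0.10 (adjusted p = 2.32e-05, 0.000321 and 0.00228), were kept under every alternative run. NDUFB1, one of the smallest subunits, was also called at all 3 times, at 0.55 ± 0.15, 0.68 ± 0.15 and 0.45 ± 0.15 (adjusted p = 0.00319, 0.000616 and 0.0159), the last not without control replicate 1 (0.0878) or day 6 replicate 1 (0.122).

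Other subunits of the membrane arm were called at day 2, at day 4 or at both, but not at day 6. NDUFC1 measured 7.72, 9.92 and 9.58 CPM in control, 16.4, 14.4 and 12.4 CPM at day 2, 12.6, 11.9 and 12.4 CPM at day 4 and 10.5, 10.4 and 9.12 CPM at day 6, with overlap with control only at day 6. Its log2 fold changes were 0.68 ± 0.13 (adjusted p = 0.000186), 0.45 ± 0.14 (adjusted p = 0.0116) and 0.14 ± 0.14 (adjusted p = 0.417). NDUFB2 was called at days 2 and 4 (0.61 ± 0.14 and 0.47 ± 0.14, adjusted p = 0.000878 and 0.0105) and was at 0.28 ± 0.14 at day 6 (adjusted p = 0.113). NDUFC2, which lies beside NDUFC1 in the complex, was called at days 2 and 4 (0.40 ± 0.12 and 0.44 ± 0.12), as was NDUFA11 (0.49 ± 0.12 and 0.31 ± 0.12). NDUFA13, also known as GRIM-19, was called at day 2 (0.48 ± 0.14, adjusted p = 0.0062), and NDUFB4, NDUFB5 and NDUFS5 at day 4 (0.43, 0.31 and 0.31). The remaining call at day 2 was NDUFB3 (0.28 ± 0.11, adjusted p = 0.0419).

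Leaving out control replicate 1 ended the day 4 calls on NDUFC1 (adjusted p 0.0897), NDUFB2 (0.102), NDUFA11 (0.22) and NDUFS5 (0.208), and the day 2 call on NDUFB3 (0.227). NDUFC2 at day 2 was lost without day 2 replicate 1 (0.0575) and NDUFB5 at day 4 without day 4 replicate 1 (0.0918). NDUFA11 at day 4 was also lost without control replicate 3 (0.119), day 4 replicate 1 (0.198) or 3 (0.132), day 2 replicate 3 (0.0504) or day 6 replicate 1 (0.0547), NDUFS5 without control replicate 3 (0.0627) or day 4 replicate 1 (0.147) or 3 (0.0749), and NDUFB3 without control replicate 3 (0.0812), day 2 replicate 1 (0.106) or 3 (0.113) or day 4 replicate 3 (0.0509). Of the 39 nuclear genes, 18 overlap a gene on the opposite strand, among them NDUFB8 (HIF1AN), NDUFB2 (BRAF) and NDUFB3 (HYCC2). The use of strand in counting is not given in the sources used here. Reads of such partners cannot be told apart. NDUFC2 shares exons with its readthrough transcript and NDUFC1 lies over MGARP on the same strand.

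**Figure D4:**
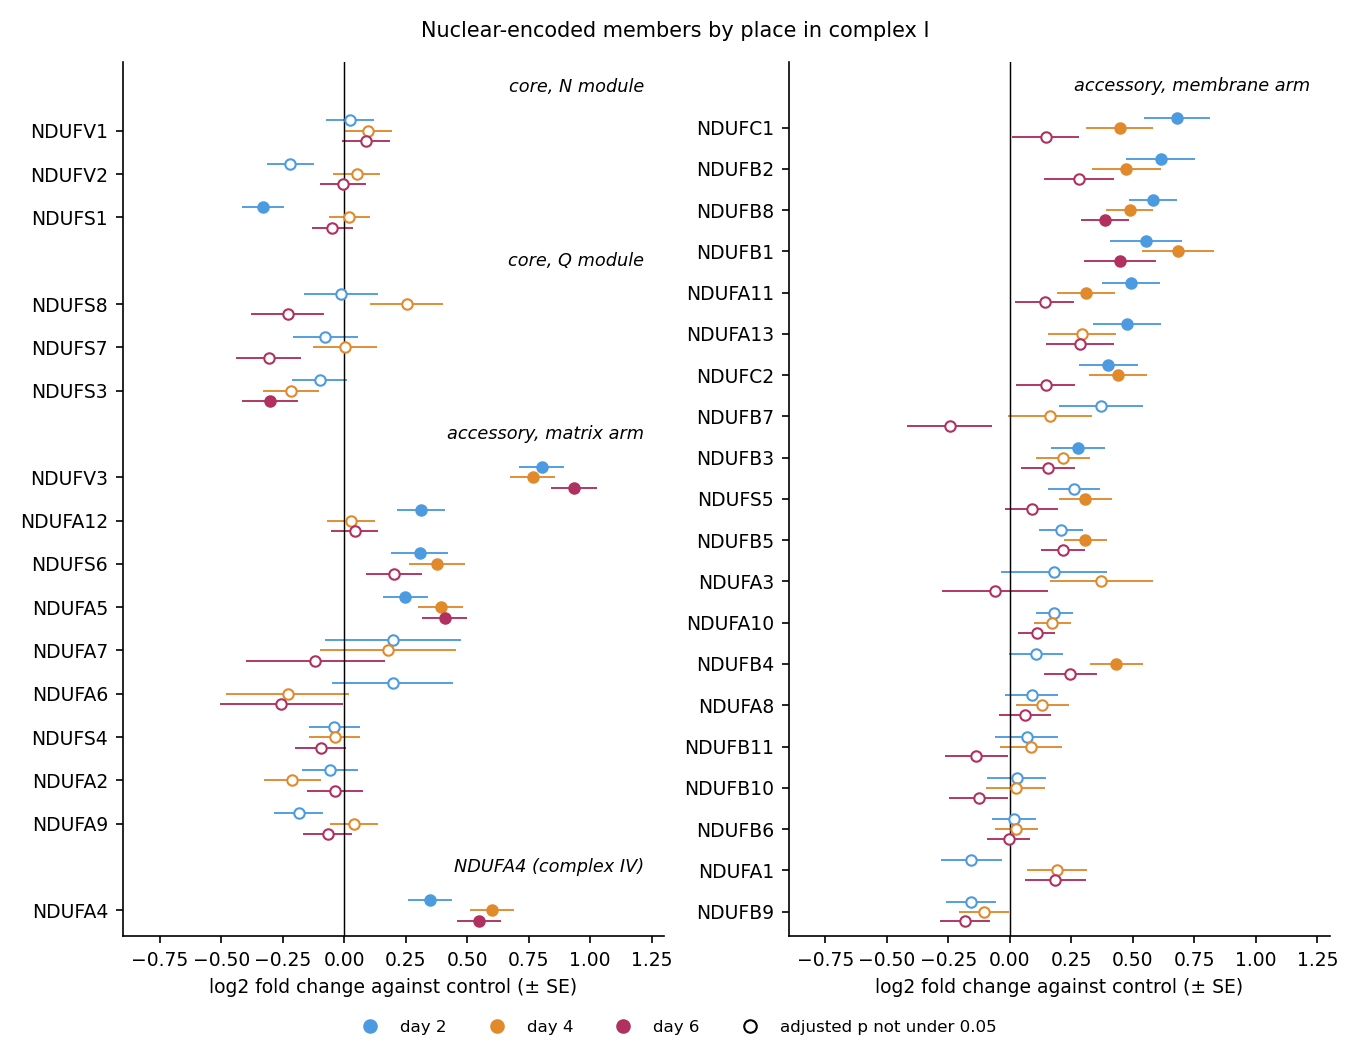
Log2 fold change against control with its SE for nuclear-encoded genes, grouped by place in the complex and sorted within each group by the day 2 value, at days 2, 4 and 6. Filled points passed an adjusted p of 0.05; the filled points to the right of 0 are accessory subunits and NDUFA4, and those to the left are the core subunits NDUFS1 and NDUFS3. NDUFA4L2, at 1.97 CPM or less in every library, is left out.

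None of 6 nuclear-encoded core subunits, NDUFS1, NDUFS3, NDUFS7, NDUFS8, NDUFV1 and NDUFV2, which carry the flavin and iron-sulfur clusters or line the quinone site, was called higher against control at any time by edgeR, at an unadjusted p under 0.05 or by DESeq2. Of all tested genes, edgeR called 23.8%, 18.8% and 22% higher at days 2, 4 and 6. With 6 genes, 0 is little below those shares. NDUFS1, the large iron-sulfur subunit of the electron input module, measured 135, 119 and 134 CPM in control and 102, 93.7 and 112 CPM at day 2, all below control. Its log2 fold change was -0.33 ± 0.08 (adjusted p = 0.00213), and by day 4 it was back at 130.1, 140.4 and 123 CPM, 0.35 ± 0.08 above day 2 (adjusted p = 0.00186). Both calls were kept under every alternative run. NDUFS1 overlaps EEF1B2 on the opposite strand and GCSHP3 on its own, and how such reads were counted is not known here. NDUFV2, its neighbour in the same module, measured 25.7, 25.8 and 27.8 CPM in control, 22.8, 21.7 and 23.5 CPM at day 2 and 28.6, 26.8 and 26.7 CPM at day 4. The day 2 libraries were below all others of the 3 groups, and the step from day 2 to day 4 was called (0.27 ± 0.09, adjusted p = 0.0293) but not day 2 against control (-0.22 ± 0.10, adjusted p = 0.0618). NDUFV1, which binds NADH and the flavin, stayed uncalled throughout (0.02 ± 0.10, 0.10 ± 0.10 and 0.09 ± 0.10).

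In the quinone module, NDUFS3 was called lower at day 6 (15.2, 16.6 and 17.2 CPM against 19.1, 21.8 and 19.6 in control, -0.30 ± 0.11, adjusted p = 0.0326), while NDUFS7 (-0.31 ± 0.13, adjusted p = 0.0633) and NDUFS8 (-0.23 ± 0.15, adjusted p = 0.231) were not. The fall of NDUFS3 depended on the fit. It was lost without control replicate 2 (0.112) or 3 (0.0512) or day 6 replicate 1 (0.123) or 2 (0.064). NDUFS3 overlaps CELF1 and KBTBD4 on the opposite strand and PTPMT1 on its own. The NDUFV2 step was lost without day 2 replicate 1 (0.0746) or 2 (0.108) or day 4 replicate 1 (0.109) or 2 (0.0596).

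NDUFA4 and NDUFA4L2 carry the family name but are not counted here as complex I subunits. NDUFA4, now counted as a subunit of complex IV, measured 45.7, 48.7 and 43.5 CPM in control, 65.4, 55.3 and 54.7 CPM at day 2, 75.8, 65.8 and 67.3 CPM at day 4 and 66.7, 69.5 and 65.2 CPM at day 6. All exposed libraries were above all controls, with log2 fold changes of 0.35 ± 0.09, 0.60 ± 0.09 and 0.55 ± 0.09 (adjusted p = 0.0025, 8.77e-06 and 2.16e-05) that were called under every alternative run. Its paralog NDUFA4L2, a hypoxia-induced gene, was scarce, at 1.02, 1.97 and 1.59 CPM in control and 0.353, 0.411 and 0.781, then 0.113, 0.300 and 0.494 and 0.122, 0.763 and 0.417 CPM at days 2, 4 and 6. All exposed libraries were below all controls, and it was called lower each time (-1.55 ± 0.48, -2.29 ± 0.52 and -1.76 ± 0.48, adjusted p = 0.00955, 0.00109 and 0.00436), the first not without day 2 replicate 1 (0.0615). It overlaps SHMT2 on the opposite strand.

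From day 2 to day 4, NDUFA1, NDUFA4, NDUFB4, NDUFS1 and NDUFV2 were the 5 nuclear genes called higher, at 0.35 ± 0.12, 0.25 ± 0.09, 0.33 ± 0.11, 0.35 ± 0.08 and 0.27 ± 0.09. Without day 4 replicate 1 the count was 1, and without day 2 replicate 2 or 3 it was 2. The calls on NDUFA1 and NDUFA4 were lost without day 2 replicate 2 (adjusted p 0.137 and 0.132) or 3 (0.0778 and 0.132) or day 4 replicate 1 (0.112 and 0.17), that on NDUFA1 also without day 4 replicate 3 (0.143), and that on NDUFB4 without day 2 replicate 3 (0.155) or day 4 replicate 1 (0.111).

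**Figure D5:**
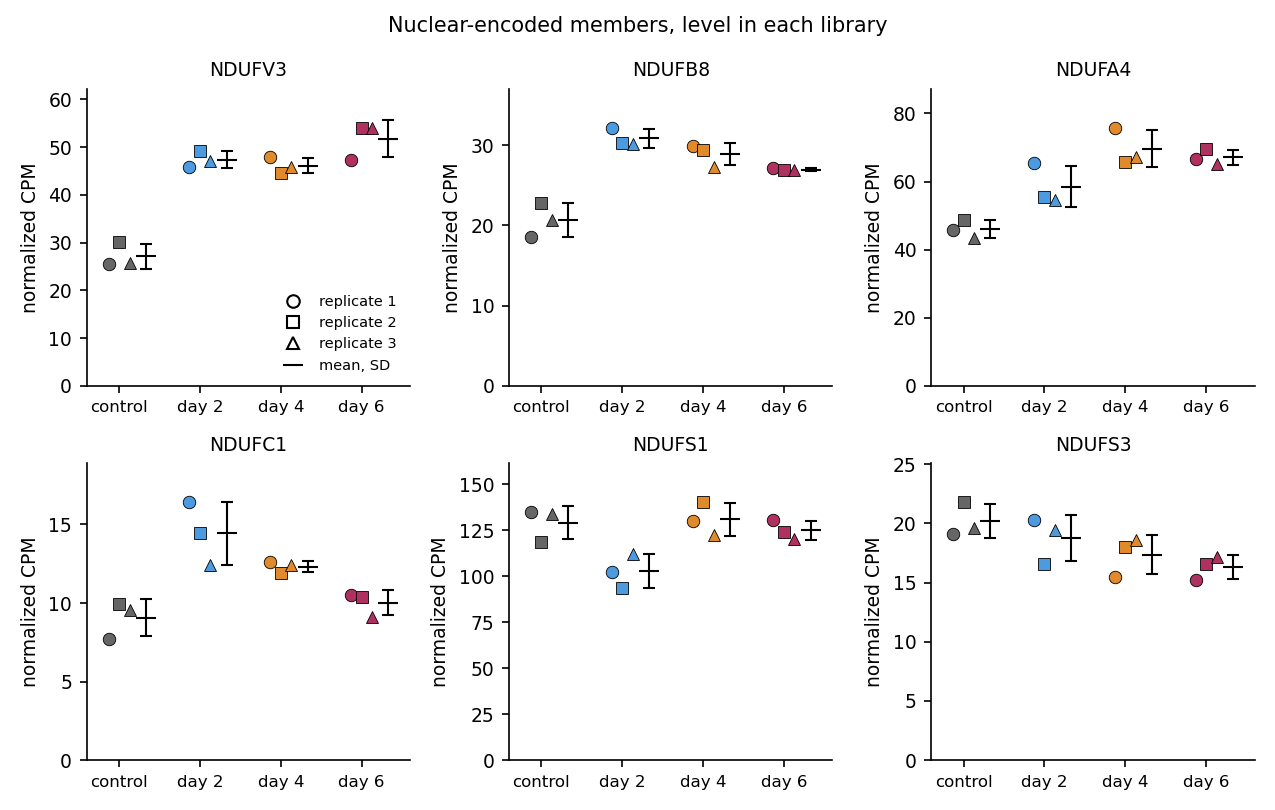
Normalized CPM in each library for 6 nuclear-encoded genes, by group; the bar and whisker give the mean and SD of 3 libraries. NDUFV3, NDUFB8 and NDUFA4 lie above all controls at every exposure, NDUFC1 at days 2 and 4, and NDUFS1 lies below all controls at day 2.

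Promoters of the nuclear genes were set beside these courses because nuclear respiratory genes are known to share binding sites for NRF1, ETS-family factors such as GABPA, and YY1. RefSeq windows of 300 bases on GRCh38.p14, from 250 bases before to 50 after each listed start, were found for 32 of the 39 genes and searched on both strands. The motif of NRF1 (GCGC, any base, then TGCGC) was in 18.8% of the 32 genes and 6.98% of all 27305 genes with such windows. That of YY1 (AAGATGGC) was in 21.9% and 3.52%, that of ETS factors (CCGGAAG) in 15.6% and 12.2%, the GC box (GGGCGG) in 68.8% and 48.3%, and the TATA box (TATAAA) in 9.38% and 14%. None of these motifs is contained in another, though matches may share bases, and a match is a description, not a site. Shown 5′ to 3′ on each gene's strand are the windows of the gene with the largest rise, of a membrane-arm gene called at all 3 times, and of a core gene called lower at day 2, with any NRF1, YY1 or ETS match in capitals.
NDUFV3 (chr21:42893059-42893358, plus strand): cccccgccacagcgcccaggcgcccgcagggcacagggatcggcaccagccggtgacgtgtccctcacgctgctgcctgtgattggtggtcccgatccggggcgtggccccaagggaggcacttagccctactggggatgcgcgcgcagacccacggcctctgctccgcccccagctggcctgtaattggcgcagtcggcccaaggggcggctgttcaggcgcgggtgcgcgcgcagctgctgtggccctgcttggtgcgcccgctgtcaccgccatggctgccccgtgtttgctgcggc
NDUFB8 (chr10:100529822-100530121, minus strand): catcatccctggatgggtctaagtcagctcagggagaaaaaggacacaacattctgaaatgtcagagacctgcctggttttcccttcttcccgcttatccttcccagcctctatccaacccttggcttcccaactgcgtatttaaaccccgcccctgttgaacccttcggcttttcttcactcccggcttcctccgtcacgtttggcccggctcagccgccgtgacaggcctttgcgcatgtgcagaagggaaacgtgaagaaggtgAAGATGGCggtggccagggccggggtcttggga
NDUFS1 (chr2:206159395-206159694, minus strand): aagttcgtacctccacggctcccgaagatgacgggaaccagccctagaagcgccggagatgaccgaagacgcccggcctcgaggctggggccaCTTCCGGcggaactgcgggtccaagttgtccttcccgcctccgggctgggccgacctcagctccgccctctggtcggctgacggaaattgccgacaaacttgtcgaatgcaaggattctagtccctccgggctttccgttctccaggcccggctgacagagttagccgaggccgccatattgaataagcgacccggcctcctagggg
The NDUFV3 window held a GC box and none of the 3 capitalised motifs. The NDUFB8 window held the YY1 letters just after the start, and the NDUFS1 window held the ETS letters on the opposite strand. NDUFB8 and NDUFS1 each have another listed start, whose window held none of the 3.

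The rest of the chain was read from lists of its other nuclear genes, chosen like the genes above with earlier results of these data known. Subunits of the complexes that contain mitochondrial-encoded partners were called higher at days 2, 4 and 6 as follows: 10, 7 and 4 of 18 for ATP synthase, 7, 3 and 1 of 9 for complex III, and 4, 4 and 1 of 10 for complex IV, where 23.8%, 18.8% and 22% of all tested genes were. At day 6 the counts were near or below that share. Against control, 0 in these 3 lists were called lower at any time by edgeR or DESeq2. At an unadjusted p under 0.05 the 1 lower was ATP5MC2 of ATP synthase at day 6, named after its value was seen (-0.25 ± 0.12, adjusted p = 0.0897). Of all tested genes, edgeR called 23.4%, 17.7% and 21.7% lower at days 2, 4 and 6. From day 2 to day 4 edgeR called 2 of the ATP synthase list, 1 of complex III and 0 of complex IV lower, beside 18.5% of all tested genes. From day 4 to day 6 it called 1, 1 and 0 lower, beside 3.73%. DESeq2 called 3, 1 and 0 lower in the first step and 4, 1 and 0 in the second. Median log2 fold changes from control at days 2, 4 and 6 were 0.31, 0.26 and 0.01 for ATP synthase, 0.28, 0.18 and 0.11 for complex III, and 0.17, 0.21 and 0.02 for complex IV. Over all tested genes they were -0.01, 0.00 and -0.01. ATP5PB, the peripheral stalk subunit b of ATP synthase, rose at every time, at 0.60 ± 0.08, 0.30 ± 0.08 and 0.25 ± 0.08 (adjusted p = 4.05e-07, 0.00294 and 0.00846). UQCRC1, a core subunit of complex III, rose at day 2 (0.49 ± 0.10, adjusted p = 0.000163), and COX7A2 of complex IV at all 3 times (0.28 ± 0.10, 0.51 ± 0.09 and 0.34 ± 0.09). Complex II, which is wholly nuclear, was mixed: SDHC rose at all 3 times (0.37 ± 0.08, 0.43 ± 0.08 and 0.36 ± 0.08), and SDHA fell at days 4 and 6 (-0.25 ± 0.09 and -0.36 ± 0.09). NDUFAB1, the acyl carrier protein of complex I whose name the rule does not match, rose at day 4 (0.45 ± 0.11, adjusted p = 0.0028).

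Factors that assemble complex I and genes of mitochondrial RNA and biogenesis were counted against the same shares of all tested genes, 23.8%, 18.8% and 22% called higher and 23.4%, 17.7% and 21.7% called lower at days 2, 4 and 6. Of 18 assembly factors, 4, 5 and 4 were called higher and 6, 3 and 3 lower, with medians of -0.04, 0.01 and 0.07. NDUFAF8 rose (1.49 ± 0.18, 0.98 ± 0.19 and 0.69 ± 0.19) and ECSIT fell (-0.35 ± 0.12, -0.84 ± 0.13 and -0.95 ± 0.13). Of 9 genes of mitochondrial transcription 1, 1 and 2 were called lower by edgeR and 0 higher (1, 0 and 0 at an unadjusted p under 0.05 and by DESeq2), with medians of -0.11, -0.16 and -0.17. MTERF3 fell at day 2 (-0.52 ± 0.12, adjusted p = 0.000836) and TFB2M, a transcription initiation factor, at day 6 (-0.33 ± 0.10, adjusted p = 0.00602). Of 17 genes of mitochondrial RNA processing and decay, 6, 3 and 2 were called higher and 1, 2 and 5 lower, with medians of 0.11, -0.01 and -0.14. GRSF1, which binds G-rich mitochondrial RNA, rose at day 2 (0.45 ± 0.08, adjusted p = 6.16e-05), as did HSD17B10, a subunit of mitochondrial RNase P (0.68 ± 0.13, adjusted p = 0.000106). Of 9 tested biogenesis regulators 6, 5 and 5 were called lower by edgeR and 1, 0 and 0 higher (0 at day 4 and 1 at day 6 at an unadjusted p under 0.05, and 0 at both by DESeq2), with medians of -0.29, -0.35 and -0.41. PPRC1 fell at every time (-0.24 ± 0.09, -0.57 ± 0.09 and -0.87 ± 0.09) as did YY1 (-0.51 ± 0.07, -0.42 ± 0.07 and -0.50 ± 0.07).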

How the data were processed

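RNA-seq counts per gene were used as the authors deposited them, in 1 table of 60607 genes and 12 libraries. Per the submitters' processing notes, the tools were HTSeq 0.13.5, STAR 2.7.8, fastp 0.23.2 and Trimmomatic 0.38, named with no roles, and the build was GRCh38.p13, and per the labels' protocols libraries were made from total RNA with a NEBNext Ultra kit. The strand setting, the handling of reads with several matches and the annotation release are not given in the sources used here. Biotypes and positions came from GENCODE 29.

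Counts were filtered with filterByExpr (minimum count 10, minimum total 15), scaled by TMM and tested in edgeR 4.0.16 (limma 3.58.1, R 4.3.3) with 1 quasi-likelihood fit over the 4 groups, 5 contrasts and Benjamini-Hochberg adjustment over 17320 genes at 0.05. CPM values use TMM-scaled library sizes. Library totals of 14835743 to 21226441 counts limit the precision of scarce genes. The code was tested on simulated data. DESeq2 1.42.0, other scalings, other filters, fewer groups, a replicate block and each library left out were alternatives.

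The members and lists were chosen with earlier results of these data known. By the rule, all mitochondrial genes and nuclear core subunits are named, with NDUFA4, NDUFA4L2 and, per comparison, the 5 highest and 5 lowest called log2 fold changes at 10 CPM or more. Other members are named to account for the calls. The values of 1 gene that counts over all members include are not reported here. From each pathway list up to 2 genes with the smallest p in the test for any difference were eligible.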

Additional observations from a re-analysis of the deposited data

Results flagged for a closer look

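The step between 2 exposures was itself tested for each gene. In 8 cases the estimated log2 fold change against control changed sign between neighbouring exposures, with an adjusted p under 0.05 for the step and a call against control on 1 side of it (edgeR's quasi-likelihood test, log2 fold changes ± SE). In 6 of them the gene was a mitochondrial message and the step ran from day 4 to day 6. In 3 of the 6 the call against control was at day 6, and the day 4 value was not called. MT-CO2 was at 0.06 ± 0.17 and then -0.72 ± 0.18, a step of -0.78 ± 0.18 (adjusted p = 0.0192). MT-ATP6 was at 0.17 ± 0.18 and then -0.50 ± 0.18, a step of -0.67 ± 0.18 (adjusted p = 0.0432), and MT-CYB at 0.14 ± 0.15 and then -0.50 ± 0.15, a step of -0.64 ± 0.15 (adjusted p = 0.0221). In the other 3 the call against control was at day 4, and the day 6 value was not called. MT-ND5 was at 0.38 ± 0.12 and then -0.14 ± 0.12, a step of -0.52 ± 0.12 (adjusted p = 0.0148). MT-ND4L was at 0.37 ± 0.10 and then -0.14 ± 0.10, a step of -0.50 ± 0.10 (adjusted p = 0.00415), and MT-CO3 at 0.30 ± 0.11 and then -0.09 ± 0.11, a step of -0.39 ± 0.11 (adjusted p = 0.0394).

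In the other 2 cases the step ran from day 2 to day 4. MT-ND4L was at -0.07 ± 0.10, not called, and then 0.37 ± 0.10, a step of 0.44 ± 0.10 (adjusted p = 0.00205). NDUFS1 was at -0.33 ± 0.08 and then 0.02 ± 0.08, not called, a step of 0.35 ± 0.08 (adjusted p = 0.00186).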

How the results depend on the processing

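Of 62 calls, DESeq2 and leaving mitochondrial genes out of the scaling kept 62, RLE size factors 61, a filter of 1 CPM in 3 libraries 61, the replicate block 58, leaving out control replicate 2 and day 2 replicate 3 (chosen after the data were seen) 57, the compared groups alone 56, no low-count filter 50 and library totals alone 46. No called value changed sign. Replicate numbers did not pair the libraries (18 same-number pairs, r from -0.17 to 0.10, 3 libraries closest to their own number). With the replicate block, mitochondrial genes called higher and lower were 1 and 0 at day 2, 7 and 0 at day 4, 0 and 4 at day 6, 1 and 0 from day 2 to day 4, and 0 and 10 from day 4 to day 6. Nuclear ones with the block were 12 and 3, 12 and 1, 5 and 2, 5 and 1, and 0 and 0. Mitochondrial genes called higher at day 2 were 4 with no filter, 9 without both libraries and 1 to 7 leaving out 1 library. At day 4 they were 3 with totals alone, 8 with the compared groups alone, 12 without both and 2 to 9 leaving out 1. At day 6 those called higher were 1 with no filter, 1 without both and 0 to 1 leaving out 1, and those called lower were 0 with no filter and 1 to 5 leaving out 1. From day 2 to day 4 those higher were 2 with totals alone, 2 with the compared groups alone and 1 to 2 leaving out 1. From day 4 to day 6 those lower were 4 with totals alone, 5 with no filter, 13 with the compared groups alone, 13 without both and 1 to 13 leaving out 1. Nuclear genes called higher at day 2 were 8 with totals alone (8 to 15 leaving out 1), and those lower were 6 (2 to 3). At day 4 those higher were 8 to 16 and those lower 1 to 2 leaving out 1. At day 6 those higher were 9 without both (4 to 9), and those lower 1 with totals alone, with no filter, with the compared groups alone and without both (1 to 5). From day 2 to day 4 those higher were 8 with totals alone, 3 with no filter and 3 without both (1 to 6), and those lower 0 with totals alone (0 to 1). From day 4 to day 6 those lower were 1 with no filter, with DESeq2, with the compared groups alone and without both (0 to 2). Genes called in the test for any difference among the groups were 22 to 32 leaving out 1 library. The mitochondrial share with all genes of mitochondrial DNA was 7.01% in control, 6.96% at day 2, 8.14% at day 4 and 6.37% at day 6, and over nuclear counts 6.97% at day 4. The share of the 13 messages in all counts, leaving out 1 library, was 4.73% to 5.61%, 5.08% to 5.97%, 6.39% to 6.44% and 4.56% to 5.01% in the same order. The log2 ratio as a mean of logs was 6.13, 6.04, 6.32 and 5.93, and the ratio of summed counts, leaving out 1 library, was 4.05 to 4.18, 4.01 to 4.28, 4.26 to 4.38 and 3.85 to 3.99. Where not shown by the alternative's own construction, the cause was not tested.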

Other observations

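Of the 2 mitochondrial ribosomal RNAs, 1 was called against control. Lower calls made up 23.4%, 17.7% and 21.7% of all tested genes at days 2, 4 and 6, and higher calls 23.8%, 18.8% and 22%. MT-RNR1, the small-subunit rRNA, had a mean of 4598 ± 1182 CPM (SD, n = 3) in control, 2845 ± 506 CPM at day 2, 3186 ± 706 CPM at day 4 and 2913 ± 261 CPM at day 6. Its log2 fold change was -0.69 ± 0.20 at day 2, -0.53 ± 0.20 at day 4 and -0.66 ± 0.20 at day 6 (adjusted p = 0.0164, 0.0658 and 0.0227, edgeR's quasi-likelihood test), so the calls were at days 2 and 6. MT-RNR2, the large-subunit rRNA that lies next to it on the same precursor, was not called against control. The ratio of MT-RNR1 to MT-RNR2 counts was 0.329, 0.394 and 0.315 in control and lay between 0.192 and 0.258 in all 9 exposed libraries. MT-TP, a transfer RNA, was called higher at days 2 and 4 (0.50 ± 0.14 and 0.52 ± 0.14). Only 3 of the 24 mitochondrial ribosomal and transfer RNA genes passed the low-count filter.

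Of 12 nuclear genes that keep and copy mitochondrial DNA, 4 were called higher and 4 lower at day 2, 3 and 4 at day 4, and 4 and 3 at day 6. Of all tested genes, 23.8% were called higher and 23.4% lower at day 2, 18.8% and 17.7% at day 4, and 22% and 21.7% at day 6. RRM2B, a p53-induced ribonucleotide reductase subunit, measured 55.1 ± 9.03 CPM in control and 335 ± 27.3 CPM at day 6, with log2 fold changes of 1.87 ± 0.12, 2.21 ± 0.13 and 2.60 ± 0.13 at days 2, 4 and 6. TK2, the mitochondrial thymidine kinase, was lower at day 2 (-0.80 ± 0.11) and higher at days 4 and 6 (0.32 ± 0.10 and 0.68 ± 0.10). Of 78 mitochondrial ribosomal protein genes, 17 were called higher and 10 lower at day 2, 13 and 7 at day 4, and 6 and 23 at day 6, beside the same shares of all tested genes, with median log2 fold changes of 0.09, -0.02 and -0.12. MRPL49 was called higher at all 3 times (1.20 ± 0.08, 0.45 ± 0.08 and 0.55 ± 0.08).

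Among 9369 nuclear genes whose mean reached 10 CPM, log2 CPM of RPL36A followed the mean of the 13 mitochondrial messages most closely, with Pearson's r of 0.956 over the 12 libraries. RPL36A measured 128, 178 and 146 CPM in control, 223, 219.8 and 118 CPM at day 2, 188, 179.7 and 193 CPM at day 4 and 98.3, 131 and 134 CPM at day 6, low in control replicate 1 and day 2 replicate 3 as the mitochondrial messages were. SNRPD3 (0.920), DBI (0.920), NDUFS8 (0.915) and COX8A (0.899) came next, and ZXDB (-0.919), DCTN4 (-0.874), TAF1A (-0.850), RAB3GAP2 (-0.818) and RNMT (-0.817) were at the other end. Over the 35 nuclear members at that level, r had a median of 0.354, from -0.267 for NDUFA2 to 0.915 for NDUFS8. All 12 points share library depth and preparation with the values they are set against, and no test was made.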
